A study of Homo sapiens with 13 samples.

Results

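The collagen genes are the genes that encode the chains of the collagens. They were taken as the protein-coding genes of GENCODE release 44 whose symbol is COL, a number, A and a number, which gave 44 of 20007 protein-coding genes. Each was described by the accessible regions listed over its transcription start site (TSS), its gene body and the 10 kb to either side in H82 and H146, established human lines of small cell lung cancer (SCLC). H82 stands for the NEUROD1 subtype of SCLC, to which H146 does not belong. Open chromatin was mapped by ATAC-seq, an assay that reads where the transposase Tn5 can cut the DNA. The cells, labelled wild type, were untreated or had received 100 nM of FHD-286, which inhibits the chromatin remodelling ATPases SMARCA4 and SMARCA2, over 14 days. H82 had 3 untreated and 3 FHD-286 libraries, and H146 had 4 untreated and 3 FHD-286 libraries. The authors pooled all libraries of a line into 1 list of regions, here called its atlas, so untreated and treated cells cannot be told apart in it. Of the H146 untreated libraries, 3 were sequenced in a separate batch from all other H146 libraries, which the atlas does not keep apart either.

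Collagens are secreted or membrane proteins built as trimers of chains that wind into a triple helix. The fibrillar collagens form the fibrils of skin, bone, cartilage and vessel walls. Type IV collagen forms the network of basement membranes, type VI collagen forms beaded filaments beside cells, and the FACIT collagens (fibril-associated collagens with interrupted triple helices) sit on the surface of fibrils. Most collagen is made by fibroblasts, chondrocytes and related mesenchymal cells, whereas H82 and H146 are neuroendocrine tumour cells that grow in suspension. A region in an atlas marks DNA open to Tn5 in at least 1 library, and says nothing about whether the gene was transcribed. The COL4 genes lie in head-to-head pairs that are transcribed in opposite directions from a shared stretch of DNA.

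The H82 atlas held 206927 regions that covered 5.41% of the 24 nuclear chromosomes, and the H146 atlas held 174093 that covered 4.49%. No atlas carries a height, a count or a library of origin. Every value is therefore a single value per line, with no spread between replicates, no test and an unknown depth, and the share of all protein-coding genes is given where a count was also made over them. The line cannot be told apart from the number and depth of its libraries or from its DNA copies. NEUROD1, the factor that defines the subtype of H82, had a TSS region of 7865 bp in H82 and none in H146. Of 10 fibroblast markers, 6 had a TSS region in both lines, 2 in H146 only (LUM, and THY1, which had one in both lines at its MANE Select start) and 2 in neither (DCN and FAP). Of 5 endothelial markers, 3 had one in both lines, VWF in H82 only and CDH5 in neither, and of 4 immune markers the counts were 2 in both and 2 in neither (PTPRC and CD3E). Among all protein-coding genes the shares were 75.4% for both lines, 5.09% for H82 only, 1.86% for H146 only and 17.7% for neither.

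Most collagen genes were accessible at their 5′ end in both lines. A region no more than 1 kb from the TSS was found in both lines at 33 of the 44, which is 75.0% against 75.4% of all protein-coding genes. No collagen gene had such a region in H82 only, against 5.09% of all genes. Only in H146 was there one at 3 genes (6.82%), COL6A3, COL6A6 and COL14A1, against 1.86% of all genes. This order depended on the window. With 250 bp to either side there were 2 genes in H82 only and 0 in H146 only, with any transcript start 2 and 1, and with 5 kb or with regions of at least 500 bp 2 and 2. Neither line had one at 8 genes (18.2%), against 17.7% of all genes. These 8 were the fibrillar genes COL3A1, COL5A2 and COL5A3, the FACIT genes COL9A1 and COL21A1, the growth plate cartilage gene COL10A1, the hemidesmosome gene COL17A1, and COL28A1. The shares for both lines and for neither were thus close to those of all genes.

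**Figure D1:**
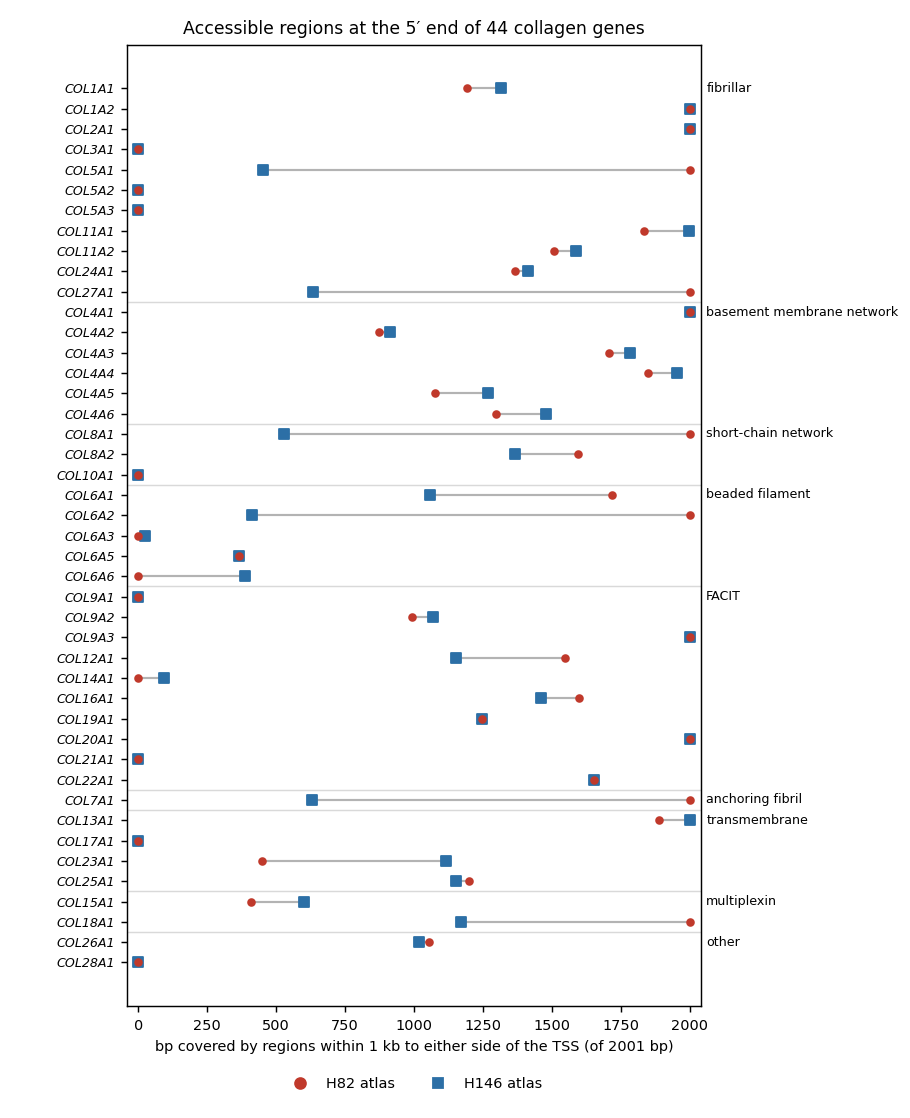
Bases covered by regions within 1 kb to either side of the TSS, out of 2001 bp, for the 44 collagen genes grouped by class, with H82 as red circles and H146 as blue squares and a grey line joining both. Both symbols sit at 0 for the 8 genes with no region in either line, and COL5A1, COL27A1, COL8A1, COL6A2, COL7A1 and COL18A1 reach 2001 bp in H82 and lie between 412 and 1170 bp in H146.

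The head-to-head COL4 pairs were open in both lines over their start sites. COL4A1 and COL4A2, which encode the chains of the common basement membrane network, have MANE Select starts (1 reference transcript chosen for each gene) 127 bp apart. A single region spanned both starts, of 3312 bp in H82 (chr13:110305939-110309250) and 3339 bp in H146 (chr13:110305939-110309277). The first base of that region was the same in both lines. The annotated 5′ end of COL4A2 lies further upstream, inside COL4A1. COL4A3 and COL4A4, which encode chains of the kidney glomerular network, have annotated 5′ ends 171 bp apart and MANE Select starts 419 bp apart. One region again spanned both, of 1848 bp in H82 (chr2:227163483-227165330) and 2057 bp in H146 (chr2:227163350-227165406). COL4A5 and COL4A6, on the X chromosome, have annotated 5′ ends 341 bp apart, and a region of 1077 bp in H82 and 1247 bp in H146 lay over both. The MANE Select start of COL4A6 is 1416 bp from that of COL4A5 and had a region of its own, of 951 bp in H82 and 1221 bp in H146. Each COL4 gene thus had a TSS region in both lines, and COL4A2 had a further one of 386 bp in H146 alone that reached into its TSS window.

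The DNA between the starts is shown for the first pairs, and the 250 bp upstream of COL4A5 for the last, since these stretches lay inside a region in both lines. The starts used were the MANE Select ones for COL4A1/COL4A2 and the annotated 5′ ends for COL4A4/COL4A3, so the stretches were not chosen alike. All are on the plus strand of hg38, 5′ to 3′, from chr13:110307158-110307283, chr2:227164454-227164623 and chrX:108439588-108439837. Capitals mark the CCAAT box CCAAT, the GC box GGGCGG and the TATA box TATAAA on either strand, so that ATTGG is a CCAAT box read from the other strand.
COL4A1/COL4A2: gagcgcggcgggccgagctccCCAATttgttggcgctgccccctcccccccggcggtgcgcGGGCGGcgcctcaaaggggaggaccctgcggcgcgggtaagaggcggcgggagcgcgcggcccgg
COL4A4/COL4A3: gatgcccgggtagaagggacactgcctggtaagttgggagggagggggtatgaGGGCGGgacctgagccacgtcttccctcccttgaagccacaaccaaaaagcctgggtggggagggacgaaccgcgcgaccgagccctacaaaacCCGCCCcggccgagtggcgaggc
COL4A5: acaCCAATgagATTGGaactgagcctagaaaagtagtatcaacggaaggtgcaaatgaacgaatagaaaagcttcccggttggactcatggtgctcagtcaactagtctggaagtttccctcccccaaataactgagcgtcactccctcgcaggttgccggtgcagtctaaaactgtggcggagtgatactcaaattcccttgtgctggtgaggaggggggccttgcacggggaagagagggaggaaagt
The COL4A1/COL4A2 stretch held 1 CCAAT box and 1 GC box, the COL4A4/COL4A3 stretch 2 GC boxes, and the COL4A5 stretch 2 CCAAT boxes. None of them held a TATA box. A match is a string of letters and not a site shown to be bound.

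**Figure D2:**
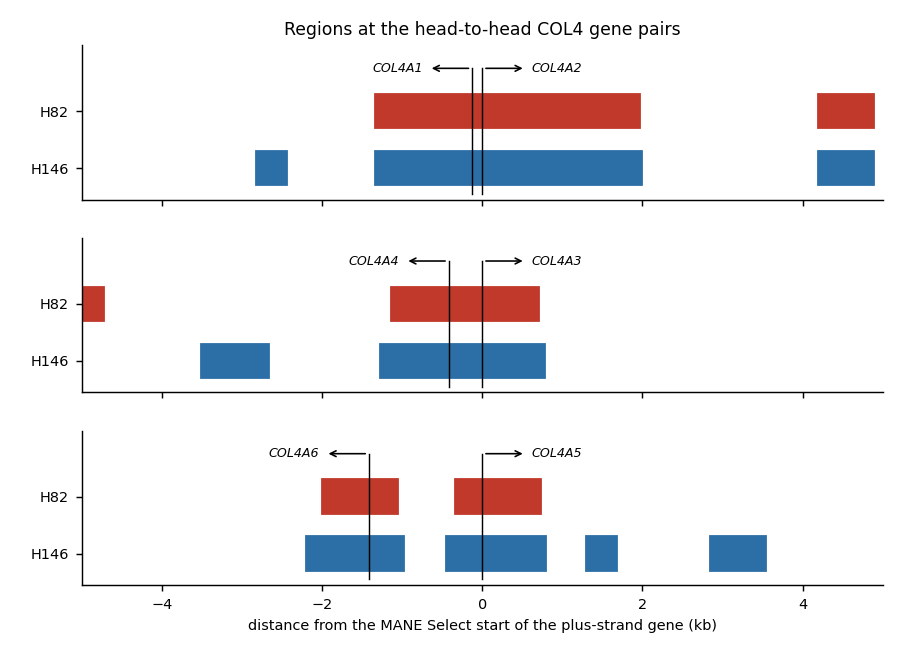
Regions of H82 (red) and H146 (blue) within 5 kb of the MANE Select start of the plus-strand gene of each COL4 pair, with distance in kb on the horizontal axis and arrows for the direction of transcription. A single region spans both starts at COL4A1/COL4A2 and COL4A4/COL4A3 in each line, and 2 separate regions lie at COL4A6 and COL4A5.

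Along their gene bodies the covered shares of the COL4 genes differed by less than 2 percentage points between the lines. COL4A2 had 51 regions over the gene and 10 kb to either side in each line, covering 18.4% of it in H82 and 19.1% in H146. COL4A1 had 36 regions in H82 and 37 in H146, and 11.3% was covered in both. COL4A4 had 16 and 15 regions with 5.45% and 5.64% covered. COL4A3 was the only one of the 6 with the larger covered share in H82, with 15 regions and 5.42% in H82 against 9 regions and 3.80% in H146. COL4A5 had 8 regions in H82 and 10 in H146, covering 1.87% and 2.79%, and COL4A6 had 18 and 22, covering 4.45% and 5.01%. The median difference between the lines in covered share, H82 minus H146, was -0.37 percentage points over the 6 genes, against 0.63 over all protein-coding genes. Equal numbers did not mean equal places, since COL4A2 had 8 H82-only and 9 H146-only regions. COL4A6 had 7 and 11. A region was called line-only when no base of it lay in a region of the other line.

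The classical interstitial collagens divided into open and closed 5′ ends. COL1A1 (chromosome 17, 50184101 to 50201632, minus strand) and COL1A2 (chromosome 7, 94394895 to 94431227, plus strand) encode type I collagen, the main fibre of bone, skin and tendon. COL1A1 had a TSS region of 2422 bp in H82 and 2543 bp in H146, and COL1A2 one of 2573 and 3331 bp. Over the gene and its flanks COL1A1 had 16 regions in H82 and 12 in H146, covering 30.9% and 21.9%, and the surroundings from 10 to 500 kb away were covered to 22.95% and 13.3%. COL1A2 had 4 regions in each line, covering 10.6% and 8.54%. COL3A1 (chromosome 2, 188974373 to 189012746, plus strand) encodes type III collagen, which forms fibrils with type I in soft tissue. Its TSS window was empty in both lines. The gene and its flanks held 4 regions in H82 and 2 in H146, which covered 3.98% and 4.37%. Its neighbour COL5A2, transcribed towards it, also had none at the TSS, with 8 and 6 regions and 2.28% and 1.41% covered.

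The 250 bp upstream of the annotated 5′ end are shown for COL1A2, as a start open in both lines. They are written in the direction of transcription, from chr7:94394645-94394894 (plus strand) of hg38, with the same capitals.
COL1A2: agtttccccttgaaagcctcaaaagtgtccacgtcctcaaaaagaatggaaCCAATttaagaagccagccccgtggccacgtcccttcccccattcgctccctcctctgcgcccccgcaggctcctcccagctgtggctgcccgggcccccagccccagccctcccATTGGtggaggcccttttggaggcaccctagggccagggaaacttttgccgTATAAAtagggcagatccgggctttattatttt
COL1A2 held 2 CCAAT boxes and 1 TATA box, at a GC content of 58.4% over these 250 bp. Across the collagen genes, the 2001 bp around the TSS had a median GC content of 61.1% (range 43.2% to 75.9%) at the 33 genes open in both lines. At the 8 open in neither it was 37.9% (33.6% to 58.7%). All protein-coding genes stood at 57.1% and 43.9% in the same states. The ratio of observed to expected CpG was 0.592 and 0.185, against 0.675 and 0.222 over all genes. COL5A3 was closed in both lines at 58.7% GC and a CpG ratio of 0.537. In the 250 bp upstream, a CCAAT box was present at 16 of 44 collagen genes (36.4%, against 33.2% of all genes) and a GC box at 22 (50% against 49.0%). A TATA box was present at 9 (20.5% against 10.0%) and the E-box CAGATG at 9 (20.5% against 11%). The E-box CAGCTG was present at 4 (9.09% against 13.1%) and TAATCC, the core word of the homeobox factor OTX2, at 1 (2.27% against 7.02%). These words were searched on both strands.

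The 3 genes with a TSS region in H146 only had small ones. COL6A3, which encodes the longest of the common type VI chains, had an H146 region of 578 bp that reached 24 bp into the 1 kb window and was itself overlapped by an H82 region outside it. At its MANE Select start, 164 bp away, both lines had a region. COL14A1, a FACIT gene, had an H146 region of 269 bp, with 94 bp inside the window, and at its MANE Select start, 65322 bp downstream, both lines had one. COL6A6, an accessory type VI chain gene, had an H146 region of 388 bp wholly inside the window, and its MANE Select start was likewise open in H146 only. By the MANE Select start, 35 collagen genes were open in both lines, COL21A1 in H82 alone, COL6A6 in H146 alone and 7 in neither. The COL21A1 start used there lies 146514 bp from its annotated 5′ end. Among all genes with such a transcript, the share was 78.5% for both lines, 4.70% for H82 alone, 1.65% for H146 alone and 15.2% for neither.

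With starts at least 1 kb apart counted once, the 44 collagen genes had 110, and 35 of them had more than 1. How many of all genes had more than 1 was not counted, and collagen genes are long (median of 145 kb against 27.5 kb). Of the 110 starts, 59 were open in both lines, 7 in H82 alone, 5 in H146 alone and 39 in neither. These are 53.6%, 6.36%, 4.55% and 35.5% of the starts, against 59.2%, 7.06%, 2.93% and 30.8% of 38191 starts of all protein-coding genes. The H82-only starts were 2 of COL6A2 and 1 each of COL6A1, COL7A1, COL9A1, COL17A1 and COL21A1. The H146-only starts were those of COL6A3, COL6A6 and COL14A1 and internal starts of COL11A1 and COL22A1. COL18A1, which encodes the precursor of endostatin, and COL20A1 had all 4 of their starts open in both lines.

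The lines also differed in the width of the TSS regions. Widths are summed where more than 1 region lay in the window. Among the 33 collagen genes open in both lines, 7 (21.2%) had a width in H82 at least 2 times that in H146, against 6.98% of 15083 protein-coding genes open in both. They were COL5A1, COL6A1, COL6A2, COL7A1, COL8A1, COL8A2 and COL27A1. COL8A1, a chain of the short-chain network of vessel and corneal endothelium, had 3292 bp in H82 and 527 bp in H146. COL5A1, a chain of the fibril-initiating type V collagen, had 2219 and 453 bp. COL27A1, a fibrillar gene of cartilage, had 3604 and 1397 bp. COL7A1, the anchoring fibril gene of skin, had 2884 and 909 bp, and COL8A2 had 3778 and 1368 bp. The surroundings of each of these 7 genes were covered more in H82 as well, by the least at COL7A1, with 7.70% against 6.09%. Their part in the widths was not tested. The converse held for 2 genes (6.06%, against 2.65% of all), COL4A5 and the transmembrane collagen gene COL23A1, with 448 bp in H82 and 1115 bp in H146. COL4A5 counted because the H146 region at the COL4A6 start also reached into its window, which the H82 one did not. The median ratio of widths was 1 over the 33 genes and 0.995 over all. The median TSS width was 2280 bp in H82 and 1652 bp in H146, against 1845 and 1746 bp over all genes.

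COL6A1 and COL6A2, neighbours on chromosome 21 that encode the short chains of type VI collagen, had the largest difference in covered share. Regions covered 58.1% of COL6A1 (45981770 to 46005050, plus strand) and its flanks in H82, with 14 regions, and 7.94% in H146, with 8. They covered 53.8% of COL6A2 (46098112 to 46132848, plus strand) in H82, with 13 regions, and 5.81% in H146, with 7. At the TSS, COL6A1 had 3526 bp in H82 and 1478 bp in H146, and COL6A2 had 2943 and 412 bp. The widest region over any collagen gene in H82 measured 11724 bp (chr21:46124133-46135856), and H146 regions covered 15.9% of it. It began inside COL6A2 and ended in the flank downstream of the gene. An H82-only region of 4991 bp lay before it, centred in an intron (chr21:46116092-46121082). COL6A3 (chromosome 2, 237324003 to 237414328, minus strand), the partner of both in the same protein, went the other way. It had 21 regions and 7.45% covered in H82, and 23 regions and 9.68% in H146. The surroundings also differed: they were covered to 20.5% in H82 and 4.62% in H146 around COL6A1, 15.8% and 3.34% around COL6A2, and 17.6% and 22.3% around COL6A3. Chromosome 21 as a whole was covered to 4.94% in H82 and 2.43% in H146, a ratio of 2.04. The part of these surroundings in the difference was not tested.

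The 250 bp upstream of COL6A2, a wide start in H82, are shown with those of its type VI partner COL6A3. The 1 kb window of COL6A3 held only 24 bp of an H146 region, at its edge, and none of an H82 region. At the MANE Select start of COL6A3, 164 bp away, both lines had a region. No region of either line lay over the COL6A3 stretch, so it is not an example of a start open in H146 alone. Both stretches run in the direction of transcription, from chr21:46097862-46098111 (plus strand) and chr2:237414329-237414578 (minus strand), with the same capitals.
COL6A2: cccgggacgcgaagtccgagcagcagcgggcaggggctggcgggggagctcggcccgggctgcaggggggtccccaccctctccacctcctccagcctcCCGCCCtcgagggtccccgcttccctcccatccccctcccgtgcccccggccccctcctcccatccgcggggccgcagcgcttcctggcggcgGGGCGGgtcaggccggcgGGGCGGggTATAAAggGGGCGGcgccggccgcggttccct
COL6A3: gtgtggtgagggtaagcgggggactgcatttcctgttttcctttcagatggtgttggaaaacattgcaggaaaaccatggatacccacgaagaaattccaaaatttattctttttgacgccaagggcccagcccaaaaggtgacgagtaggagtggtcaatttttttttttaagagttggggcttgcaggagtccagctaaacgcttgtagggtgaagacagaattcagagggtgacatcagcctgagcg
COL6A2 held 4 GC boxes and 1 TATA box, and COL6A3 held none of the 3 words. GC content over these 250 bp was 79.6% and 46.8%.

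Over whole genes, H82 had more regions at 28 collagen genes (63.6%) and H146 at 12 (27.3%), and the numbers were equal at COL1A2, COL4A2, COL6A6 and COL9A1. Over all protein-coding genes these shares were 52.1% and 26.1%. Collagen genes are long, with a median of 145 kb against 27.5 kb over all genes. The median number of regions was 14 in H82 and 10 in H146, against 6 and 5 over all genes. By covered share, which takes length into account, H82 was larger at 26 genes (59.1%, against 59.4% of all) and H146 at 18 (40.9%, against 36.9%). The median of the covered share stood at 7.52% for H82 and 5.52% for H146, against 8.10% and 6.70% over all genes. By this measure the counts for the collagen genes were close to those for all genes.

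**Figure D3:**
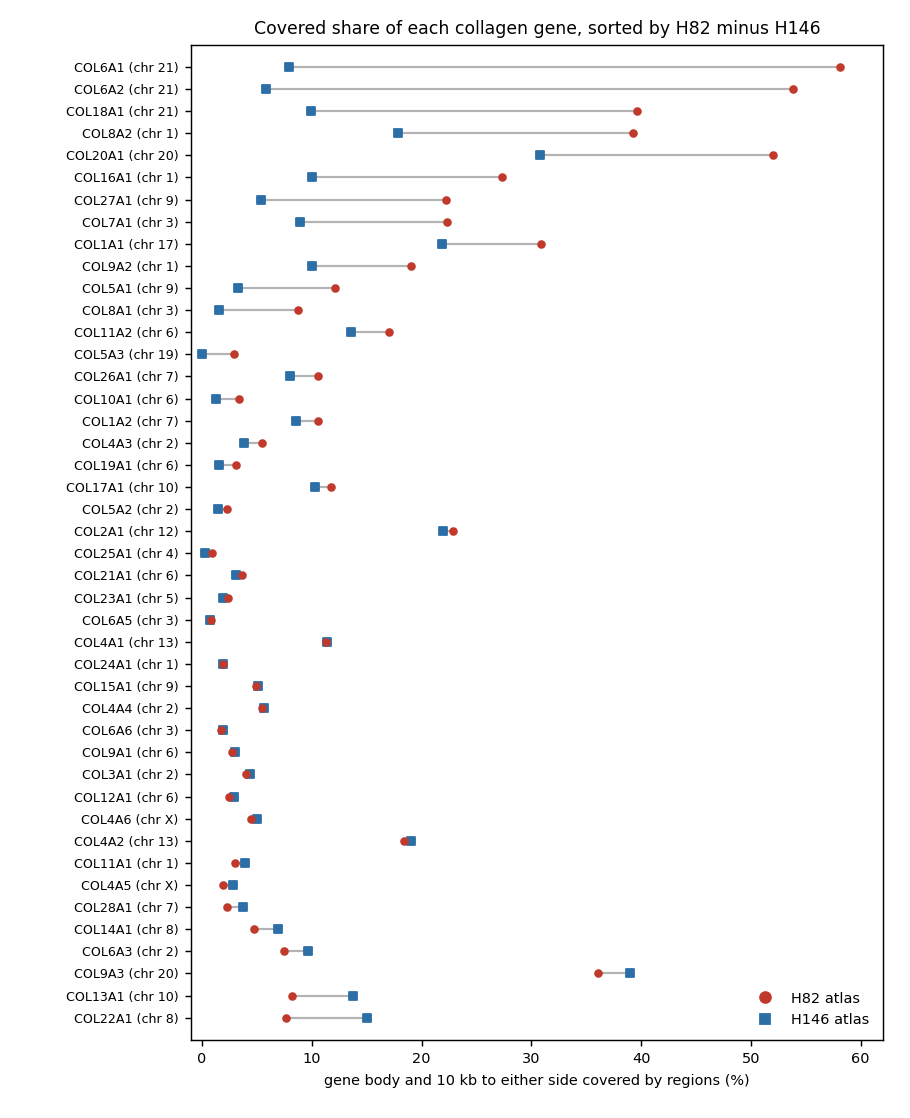
Percent of each collagen gene and its 10 kb flanks covered by regions in H82 (red circles) and H146 (blue squares), sorted by the difference, with the chromosome beside the symbol. The 26 genes at the top have the larger share in H82, led by COL6A1 at 58.1% against 7.94%, and COL22A1 at the bottom has 7.60% against 15.1%.

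The counts varied between the classes of collagen, most of which hold few genes, and no test was made between them. Over all protein-coding genes H82 had the larger covered share at 59.4% and H146 at 36.9%, with a median difference of 0.63 percentage points. Of the 11 fibrillar genes, H82 had the larger covered share at 8 and H146 at 3, with a median difference of 2.01 percentage points. All 3 short-chain genes, COL8A1, COL8A2 and COL10A1, had the larger share in H82, with a median of 7.14. Among the 6 basement membrane genes H82 was larger at 1, and among the 10 FACIT genes at 5, with a median difference of 0.12. The 5 beaded filament genes ran from -2.23 at COL6A3 to 50.2 at COL6A1, with H82 larger at 3. Of the 4 transmembrane genes, H82 was larger at 3, and COL13A1 was the exception. The multiplexins COL15A1 and COL18A1, collagens of the basement membrane zone, and the remaining genes COL26A1 and COL28A1 each gave 1 gene to either line. COL7A1, alone in its class, had 15 regions and 22.3% covered in H82, and 6 regions and 8.96% in H146.

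The largest excess in number for H82 was at COL18A1, with 42 regions against 17, then COL5A1 with 41 against 17 and COL27A1 with 44 against 22. COL8A1 followed with 21 against 8, and the FACIT genes COL16A1 and COL19A1 with 21 against 10 each, of which COL16A1 is described for its larger difference in covered share. COL18A1 (chromosome 21, 45405165 to 45513720, plus strand) was covered to 39.6% in H82 and 9.94% in H146, and its surroundings to 21.6% and 4.50%. It had 28 H82-only regions and no H146-only region, as each of the 17 H146 regions met an H82 region by at least 1 bp. COL5A1 (chromosome 9, 134641803 to 134844843, plus strand) had 31 H82-only and 5 H146-only regions, with 12.1% and 3.24% covered, and 19 against 4 regions of at least 500 bp. COL27A1 (chromosome 9, 114155537 to 114312511, plus strand) had 29 and 3, with 22.2% and 5.40% covered against 9.35% and 3.05% in its surroundings. COL8A1 (chromosome 3, 99638475 to 99799226, plus strand) had 14 and 1, with 8.72% and 1.58% covered. COL16A1 (chromosome 1, 31652263 to 31704319, minus strand) had 13 and 2, with 27.3% and 10.1% covered. At all 5 genes the surroundings, too, had the larger covered share in H82, from 8.15% against 2.15% at COL8A1 to 21.6% against 4.50% at COL18A1.

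COL25A1, a transmembrane collagen gene of neurons, had most of its regions in H82 alone. It spans 494 kb of chromosome 4 (108808725 to 109302752, minus strand) and had 11 regions in H82 and 1 in H146. The region at the TSS was shared, of 1200 bp in H82 and 1151 bp in H146. Its other 10 regions in H82 were all H82-only and all centred in introns. They were narrow, and with regions of at least 500 bp the gene had 2 in H82 and 1 in H146. Its surroundings were covered alike, to 2.66% in H82 and 2.71% in H146. COL19A1 had 16 H82-only and 5 H146-only regions, and COL5A3 had 3 regions in H82 and 0 in H146.

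The largest excess for H146 was at COL22A1, a FACIT gene of tissue junctions, with 73 regions against 43 in H82. It had 33 H146-only regions, 32 of them centred in introns, and 2 H82-only regions. The gene and its flanks were covered to 15.1% in H146 and 7.60% in H82. Its surroundings were covered to 5.13% and 4.32%, and its TSS region was 1995 bp wide in both lines. COL14A1 followed with 31 regions against 22 (15 H146-only and 6 H82-only), and COL13A1 with 32 against 25. COL13A1 (chromosome 10, 69801880 to 69964275, plus strand), a transmembrane collagen gene of the neuromuscular junction, had 10 H146-only and 2 H82-only regions and was covered to 13.8% in H146 and 8.23% in H82. It held the widest H146-only region over any collagen gene, of 1615 bp and centred in an intron (chr10:69876452-69878066). COL4A6 had 4, and COL28A1 and COL2A1 each had 3, more regions in H146. With regions of at least 500 bp the excess at COL22A1 was 32 against 18. COL22A1 and COL14A1 lie on chromosome 8, which had more regions in H146 (9404 against 8751) and the larger covered share in H82 (5.38% against 5.00%). COL13A1 lies on chromosome 10, which was covered to 4.32% in H146 and 3.95% in H82.

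**Figure D4:**
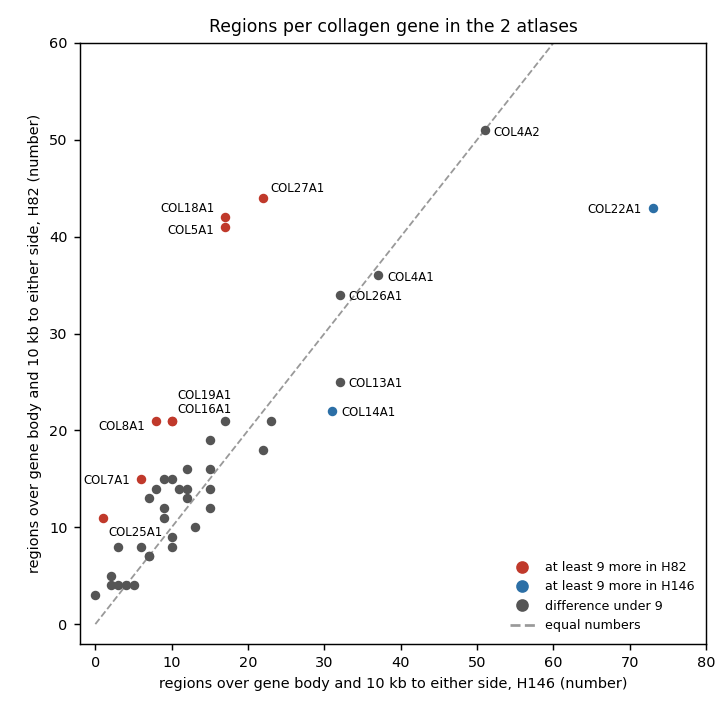
Number of regions over each collagen gene and its 10 kb flanks in H146 (horizontal axis) and H82 (vertical axis), 1 point per gene, with the dashed line at equal numbers. Red points have at least 9 more in H82 and blue points at least 9 more in H146, with COL22A1 furthest to the right at 73 against 43.

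**Figure D5:**
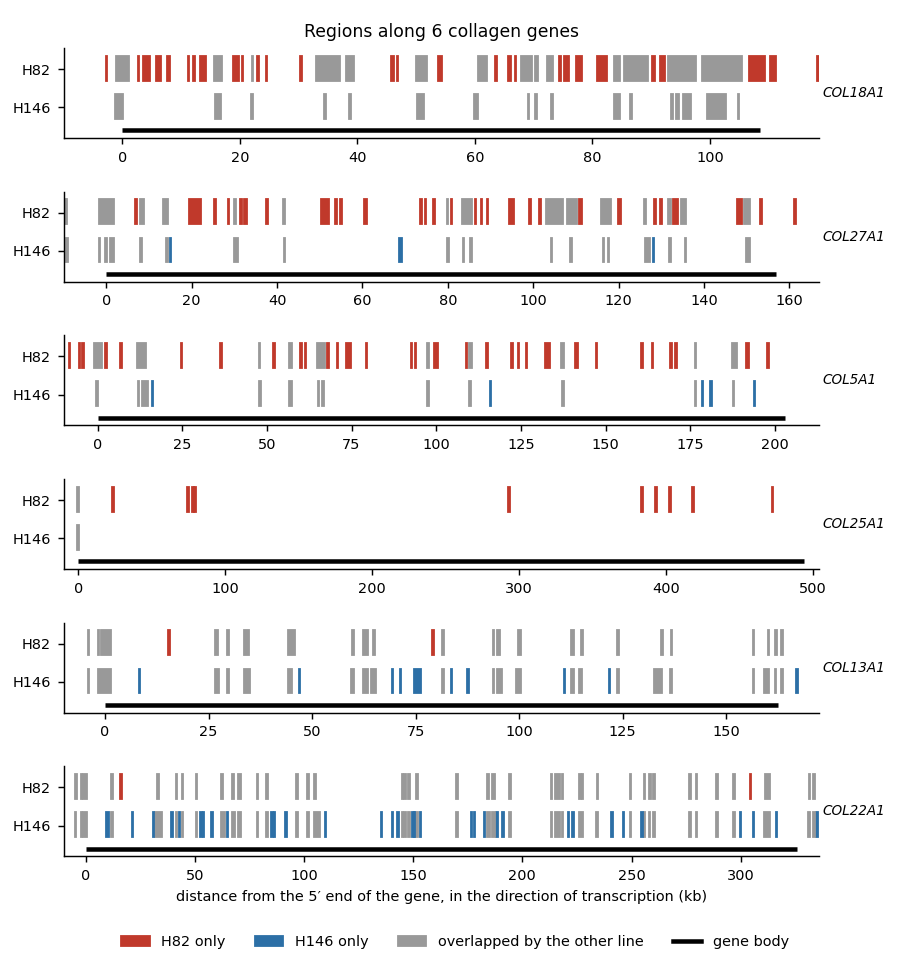
Regions along COL18A1, COL27A1, COL5A1, COL25A1, COL13A1 and COL22A1 in H82 (upper row of each map) and H146 (lower row), by distance from the 5′ end in kb, with the gene body as a black bar. Grey regions are overlapped by the other line, red ones are H82-only and blue ones H146-only, and COL25A1 has its shared region at the 5′ end alone.

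The widest regions lay at other genes in part. In H82, COL6A2 was followed by COL20A1, a FACIT gene, with 11161 bp (chr20:63305124-63316284, 57.8% covered in H146) and 9946 bp over its TSS (chr20:63288579-63298524, 80.03% covered). In H146 the widest were TSS regions: 12020 bp at COL9A3 (chr20:62814321-62826340), 7560 bp at COL20A1 (chr20:63290111-63297670) and 4790 bp at COL2A1 (chr12:48000859-48005648). H82 regions covered 89.0% of the first and 100% of the others. COL9A3 and COL2A1 encode cartilage collagens, and their covered shares were close between the lines, at 36.1% in H82 and 39.0% in H146 for COL9A3 and 22.8% and 21.96% for COL2A1. COL20A1 was covered to 52.0% in H82 and 30.8% in H146.

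In all, 755 H82 regions and 622 H146 regions lay over the collagen genes and their flanks, 1.21 times as many in H82. The whole atlases held 206927 and 174093 regions, so the excess of H82 was not particular to these genes. Of the H82 regions, 432 (57.2%, 95% Wilson interval 53.7% to 60.7%) overlapped an H146 region, against 59.3% of the whole atlas. Of the H146 regions, 453 (72.8%, 69.2% to 76.2%) overlapped an H82 region, against 70.5% of the whole atlas. The intervals cover counting error only, and regions of a gene are not replicates. This left 323 H82-only and 169 H146-only regions. Regions away from a TSS were placed by their centre, and introns held 77.6% of the H82 and 76.8% of the H146 regions over these genes. Of the intronic regions, 264 of 586 were H82-only and 142 of 478 were H146-only. Of the 31 H82 regions at a collagen TSS none was H82-only, and of the 39 H146 ones 3 were H146-only. Line-only regions by place were not counted over all genes, so the intronic and TSS counts have no background to be set against. The H82 regions at a collagen TSS were also the wider by median (2280 against 1248 bp), and the part of width in these counts was not tested. By median width, shared regions measured 598 bp (H82) and 558 bp (H146), and line-only ones 375 and 317 bp.

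Sequence words of lineage factors were then counted in the line-only regions, since OTX2 is linked to the NEUROD1 subtype and FOXA factors to neuroendocrine SCLC. TAATCC, the OTX2 word, occurred 0.711 times per kb in the 323 H82-only regions of the collagen genes (122 matches in 172 kb), against 1.26 over all H82-only regions of the genome. In the 169 H146-only regions it occurred 0.462 times per kb (30 matches in 65.0 kb), against 0.448. TGTTTAC, the FOXA word, occurred 0.0641 times per kb in H82-only regions (11 matches, 0.130 genome-wide) and 0.200 in H146-only regions (13 matches, 0.315 genome-wide). The E-box CAGATG occurred 1.14 and 0.969 times per kb, against 1.24 and 0.895, and the E-box CAGCTG 0.997 and 1.15 times per kb, against 0.809 and 0.878. The order of the lines was thus that of the whole atlases for each word, and the OTX2 word was less dense in the H82-only regions over collagen genes than in those of the genome. No test was made of either.

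An example of each kind of line-only region is shown, as 300 bp on the plus strand. The 300 bp were placed to hold the most matches and, among equal placements, nearest to the centre of the region. The first, with the OTX2 word in capitals on either strand, is from an H82-only region of 518 bp in an intron of COL4A4 (chr2:227095344-227095643). The second, with the FOXA word in capitals, is from an H146-only region of 482 bp over COL19A1 (chr6:70102217-70102516).
COL4A4 H82-only: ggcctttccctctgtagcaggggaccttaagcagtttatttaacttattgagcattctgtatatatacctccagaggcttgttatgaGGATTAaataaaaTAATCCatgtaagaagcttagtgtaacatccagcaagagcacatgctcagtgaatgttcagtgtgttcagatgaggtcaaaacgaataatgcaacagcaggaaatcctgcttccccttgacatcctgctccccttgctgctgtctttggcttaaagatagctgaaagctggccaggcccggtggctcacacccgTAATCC
COL19A1 H146-only: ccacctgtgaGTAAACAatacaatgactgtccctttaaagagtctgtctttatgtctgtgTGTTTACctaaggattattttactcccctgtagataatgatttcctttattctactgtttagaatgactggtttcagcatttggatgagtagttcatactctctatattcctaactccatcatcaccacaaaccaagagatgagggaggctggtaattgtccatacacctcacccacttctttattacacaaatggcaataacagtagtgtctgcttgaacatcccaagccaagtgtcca
The first held 3 matches to the OTX2 word and the second 2 to the FOXA word. Each was picked for its matches, after they had been counted.

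Of 31 genes that make and assemble collagen, 29 had a TSS region in both lines, where 75.4% of all genes had one, and SEC23A and LOXL2 had none at the annotated 5′ end and one in both lines at the MANE Select start. None was open in a single line. H82 had the larger covered share at 20 and H146 at 11, against 59.4% and 36.9% of all genes, with a median difference of 0.57 percentage points. The 10 genes of the prolyl hydroxylase group, among them P4HB (47.6% in H82 and 48.4% in H146) and PPIB, a prolyl isomerase of the same complexes (42.9% and 16.8%), were all open at the TSS. PLOD3, a lysyl hydroxylase, was covered to 27.6% and 9.58%, and SERPINH1, the collagen chaperone, to 17.1% and 15.8%. Of the cross-linking enzymes, LOXL1 had a TSS region of 8105 bp in H82 and 2661 bp in H146, with 42.7% and 11.3% covered, whereas LOX had 6.96% and 8.84%.

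Of 10 collagen receptor genes, 7 had a TSS region in both lines, among them the integrin genes ITGA1, ITGA2, ITGA10, ITGA11 and ITGB1 and the receptor tyrosine kinase gene DDR1. DDR2, a receptor tyrosine kinase for fibrillar collagen, had one of 1758 bp in H82 only, and 6.90% of it was covered in H82 and 1.93% in H146. GP6, the collagen receptor of platelets, had one of 307 bp in H146 only. LAIR1, an inhibitory receptor of immune cells, had none. H82 had the larger covered share at 5 of the 10 and H146 at 5, against 59.4% and 36.9% of all genes. The median difference was 0.27 percentage points, against 0.63 over all genes. A TSS region was present in both lines at 75.4% of all genes, in H82 only at 5.09%, in H146 only at 1.86% and in neither at 17.7%.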

How the data were processed

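ATAC-seq regions of H82 and H146 were analysed as the authors deposited them, 1 atlas per line with region starts (counted from 0) and ends in bp on hg38 as its values. Per the methods, the authors prepared libraries from cryopreserved cells, trimmed paired reads with Trim Galore 0.4.4, aligned them with Bowtie2 2.3.4, removed reads of equal start and orientation with Picard, called regions per sample with MACS2, dropped blacklisted ones and merged those within 500 bp of each other. A region found in any library is thus listed, and neighbouring sites are joined, so width is not that of a single site. Whether read ends were shifted for the Tn5 cut is not given in the sources used here. The authors counted reads with featureCounts 1.6.0 and tested FHD-286 with DESeq2. A test of FHD-286 had been planned in case of counts and was not run, since the files hold none. Depth is unknown.

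GENCODE release 44, also on hg38, gave 20007 protein-coding genes on 24 chromosomes, 1 per symbol. Regions were counted at a gene or a TSS by any overlapping base, with Python 3.11.15, numpy 2.4.6 and pysam 0.24.0. Away from the TSS, a region was placed in an intron, exon or flank by its centre alone. Sharing differed from bedtools 2.31.1 for 0 regions, and the interval code was tested on simulated data. A covered share is the percent of gene body and 10 kb flanks inside regions. Sequences were read from hg38, and those of some starts are not reported here. The collagen genes, lists and rules were chosen with earlier results of these data known. The rule named genes whose TSS state differed, the COL4 genes, COL1A1, COL1A2, COL3A1, the 5 largest excesses in number per line and the 3 widest regions per line. Other genes were named after their values were seen, and so were chosen the surroundings, the MANE Select starts, the starts 1 kb apart, the ratio of 2 in width and the omission of chromosomes 21 and 8. Collagen classes were assigned from general knowledge. Alternatives were other TSS windows, flanks, minimum widths, overlaps and start sites.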

Additional observations from a re-analysis of the deposited data

How the results depend on the processing

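No paired analysis was possible because the atlases hold no value per sample, which also means that no replicate was left out. Depth, library number and DNA copies limit every comparison between the lines, since a region needs reads to be called.

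The cause of the changes below was not tested. Of 61 comparisons with the summary values of the collagen genes, 43 stayed within the limits set for them and 18 moved. The limit was 1.5 times for a count or a ratio of counts. For a shared part or matches per kb it was the 95% interval of the main value. The 33 genes open at the TSS in both lines became 29 to 36. The 0 genes open in H82 only became 2 with a TSS window of 250 bp (COL6A2 and COL7A1), 2 with 5 kb (COL3A1 and COL5A3), 2 with any transcript start (COL9A1 and COL21A1), 2 with regions of at least 500 bp (COL5A1 and COL6A2) and 1 with the MANE Select start. The 3 genes open in H146 only became 0 with 250 bp, 1 with any transcript start and 1 with the MANE Select start. The 8 open in neither became 4 with 5 kb and 5 with any transcript start. The number of regions over the genes was 1138 in H82 with flanks of 50 kb, and 357 in H82 and 285 in H146 with regions of at least 500 bp, while the ratio of the lines stayed between 1.16 and 1.33. The whole atlases, with 206927 and 174093 regions, also held more in H82. Overlap of 50% of both regions lowered the shared part to 41.5% in H82 and 50.5% in H146, and without the genes on chromosome 8 it was 76.6% in H146. In the central 200 bp of H82-only regions the OTX2 word occurred 1.05 and CAGATG 1.36 times per kb. Over the central 200 bp of all H82-only regions of the genome these were 1.66 and 1.44. The number of genes with the larger covered share in H82, 26, ranged from 21 (relative to the surroundings) to 30 (gene body alone).

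For the difference in number of regions at 24 named genes, 30 of 48 comparisons stayed within the limits, 13 moved and 5 turned in sign. Among those that moved, with regions of at least 500 bp, were COL22A1 (-14 from -30) and COL5A1 (15 from 24). The 5 that turned did so with regions of at least 500 bp as well. They were COL2A1 (1 more in H82, from 3 fewer), COL3A1 (-1 from 2), COL4A4 (-1 from 1), COL9A3 (-1 from 2) and COL20A1 (1 from -1), all H82 minus H146.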

Other observations

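Line-only regions made up most of the regions of some collagen genes. In COL8A1, 14 of 21 H82 regions were H82-only, in COL7A1 10 of 15 and in COL6A1 10 of 14. These genes were picked after their values were seen. Over all collagen genes 323 of 755 H82 regions were H82-only, and in the whole H82 atlas 59.3% of regions overlapped an H146 region. The density of regions over a collagen gene and its flanks ran in H82 from 2.14 per 100 kb at COL25A1 to 42.6 at COL1A1, with a median of 10.2. In H146 it ran from 0 at COL5A3 to 32.0 at COL1A1, with a median of 8.08, and COL25A1 had 0.195.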
